A study of Mus musculus with 8 samples.

Results

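The 9 genes described here carry or read out the signal of leukaemia inhibitory factor (LIF) in mouse embryonic stem cells: the ligand Lif, the receptor chains Lifr and Il6st, the kinases Jak1 and Jak2, the transcription factor Stat3, and the Stat3 target genes Socs3, Pim1 and Pim3. They were taken by symbol from a table of 55078 gene symbols, and all 9 had a row and passed the filter of at least 1 FPKM (fragments scaled to transcript length and library size) in at least 2 libraries, which left 15967 genes to test.

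The RNA came from 46C, a mouse embryonic stem cell line with a fluorescent reporter in the Sox1 gene, and from cells of the same line labelled KO, in a study of Dip2c deletion and neural differentiation. Of the 8 libraries, 4 are stem cells at day 0, namely a WT-labelled and a KO-labelled library in each of a KSR series and an N2B27 series. The other 4 are the WT-labelled and KO-labelled cells after 4 days in KSR induction medium and after 6 days in N2B27 induction medium, the routes to neural cells in this study. For the induced WT-labelled N2B27 library the column name gives day 7, while its label gives day 6. It is not given in the sources used here which clone stands behind the KO label, or whether the stem cell medium held LIF. There was 1 library per label and condition, so the WT-labelled and KO-labelled libraries stand as the 2 pairs of each medium. No label says that libraries came from repeated cultures, so p-values measure only the spread between these libraries. The medium and the number of days in it cannot be told apart.

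LIF binds Lifr, which pairs with Il6st, the signal chain (gp130) shared by the interleukin 6 family. JAK kinases bound to the receptor chains phosphorylate Stat3, which enters the nucleus and switches on its targets. In mouse embryonic stem cells this route holds back differentiation, and Socs3 closes a negative feedback loop by binding Il6st and JAK kinases.

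The summed FPKM of the libraries ran from 509344 to 637117, with 13451 to 14335 genes at 1 FPKM or more and 5.18% to 6.57% of the sum from mitochondrially encoded genes. Read counts were not used here, so the depth is known only in relative terms, from 0.973 to 1.157 of the WT-labelled KSR day 0 library. Dip2c ranged from 2.74 to 5.78 FPKM under the WT label and from 2.91 to 4.43 under the KO label. Because Dip2c mRNA did not separate the labels, libraries are named by their label throughout. The Y-linked gene Eif2s3y had 7.03 to 14.9 FPKM under the WT label and was listed at 0 in every library under the KO label.

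The first question was what happened to the LIF route during induction. The mRNA of Stat3 and of its targets Socs3, Pim1 and Pim3 fell in both media, and Jak2 mRNA rose in both. In KSR the ligand and both receptor chains fell as well, though for none of them did the difference between the media pass its test, given below. Il6st had −0.50 log2 in KSR and −0.38 in N2B27. In limma's test across all 15967 genes, on log2 of FPKM plus 1, 8 of the 9 genes passed an adjusted p of 0.05 at KSR day 4 against day 0, 7 lower and 1 higher, where 48.5% of all genes passed, 20% lower and 28.5% higher. At N2B27 day 6 against day 0, 5 of the 9 passed, 4 lower and 1 higher, against 55.9% of all genes, 26.2% lower and 29.7% higher. Over both media (4 pairs, which are the same libraries), 8 passed, 7 lower and 1 higher, against 64.7% of all genes, 29.1% lower and 35.6% higher. The median log2 change of the 9 genes was −1.77 in KSR and −0.38 in N2B27, and that of all genes tested was 0.08 and 0.04. Without 1 library at a time, 6 to 8 of the 9 passed in KSR and 5 in N2B27. In bulk RNA, fewer cells of a type and less RNA per cell cannot be told apart.

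**Figure D1:**
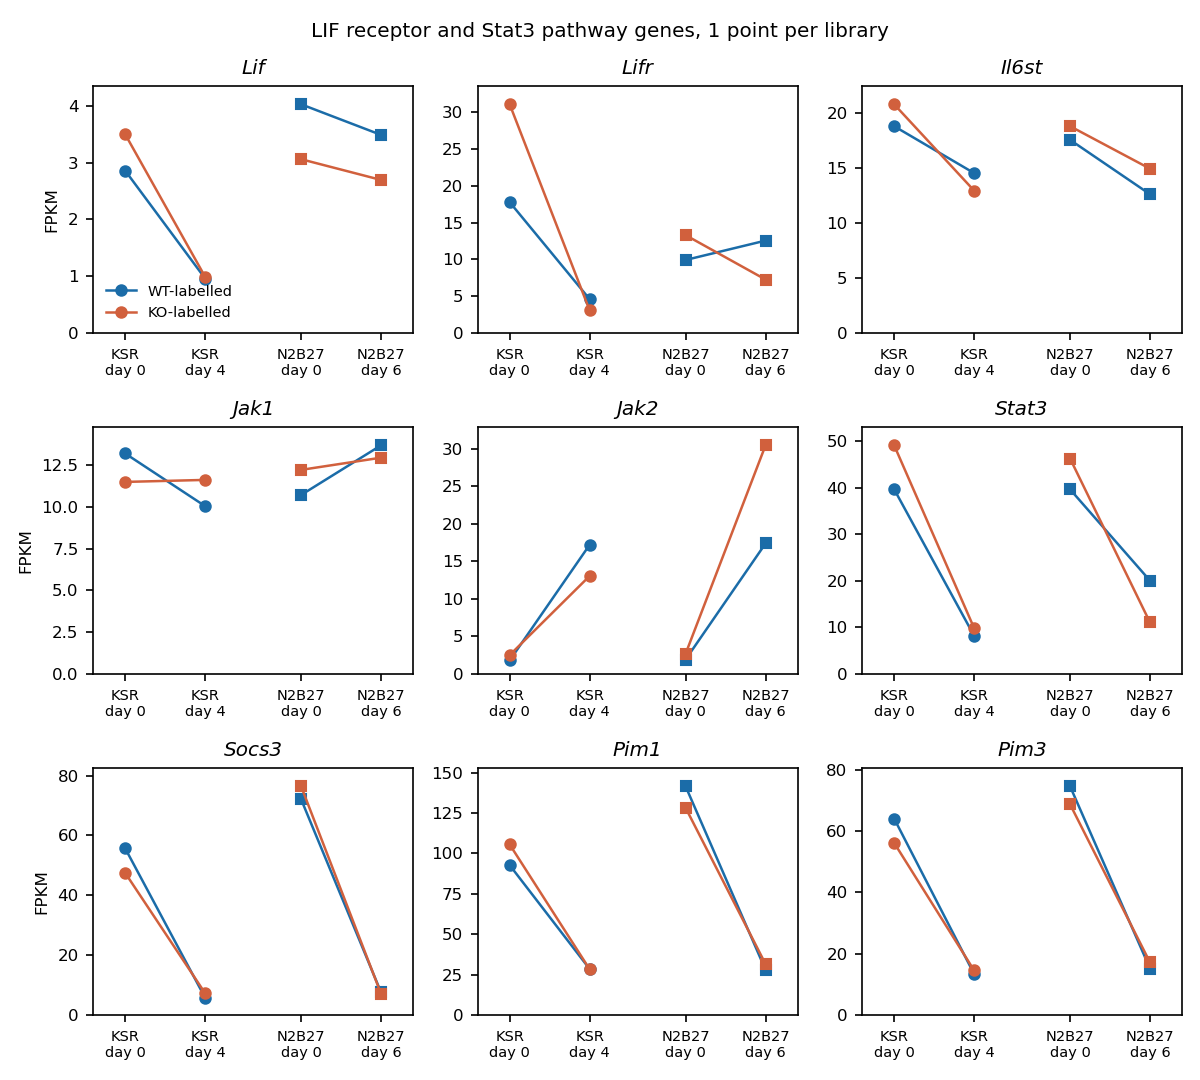
FPKM (y axis, linear, from 0) of each of the 9 genes in the 8 libraries, with lines joining day 0 and the induced library of the same label and series, blue for WT-labelled and orange for KO-labelled, circles for KSR and squares for N2B27. Socs3 drops from 47.5 to 76.4 FPKM at day 0 to 5.74 to 7.55 after induction, and Jak2 climbs from 1.81 to 2.69 to 13.1 to 30.5.

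**Figure D2:**
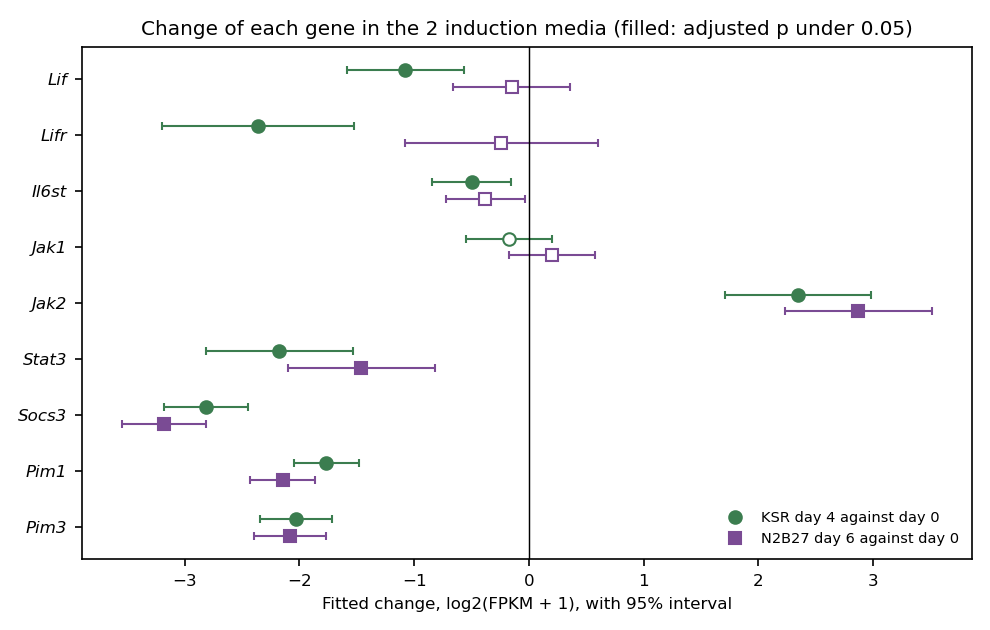
Fitted log2 change (x axis, on FPKM plus 1) of each gene in KSR (green circles) and N2B27 (purple squares), with 95% intervals of limma; filled symbols passed an adjusted p of 0.05. Lifr shows the widest distance between the media, at −2.36 in KSR and −0.24 in N2B27.

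The ligand gene Lif (ENSMUSG00000034394.14, chr11:4257557-4272514, plus strand; GRCm38/mm10 here and below) was low throughout. It had 2.86 and 3.50 FPKM in the WT-labelled and KO-labelled libraries of KSR day 0, and 4.03 and 3.06 at N2B27 day 0. After induction it had 0.959 and 0.988 at KSR day 4, and 3.49 and 2.69 at N2B27 day 6. The KSR day 4 libraries lay below all others, and the N2B27 day 6 libraries lay within or just below the range of day 0. Lif fell in KSR (−1.08 ± 0.21 log2, n = 2 pairs, adjusted p = 0.00588 in limma) and had −0.15 ± 0.21 in N2B27 (adjusted p = 0.575, 95% interval −0.66 to 0.36). Values after ± here and below are standard errors from limma's fit of all 8 libraries, and not the spread of the 2 pairs of 1 medium. The KSR call was lost without the WT-labelled KSR day 4 library (−1.01; adjusted p = 0.0535) and without the KO-labelled KSR day 0 library (−0.87; adjusted p = 0.0623).

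Lifr (ENSMUSG00000054263.12, chr15:7090614-7197489, plus strand), the chain that binds LIF, varied among the stem cell libraries. Its FPKM was 17.8 and 31.1 in the WT-labelled and KO-labelled libraries of KSR day 0, and 9.92 and 13.3 at N2B27 day 0. It was 4.59 and 3.08 at KSR day 4, and 12.6 and 7.26 at N2B27 day 6. The KSR day 4 libraries were below every other library, while those of N2B27 day 6 overlapped with those of N2B27 day 0. Lifr fell in KSR by 2.36 ± 0.35 log2 (adjusted p = 0.00174) and had −0.24 ± 0.35 in N2B27 (adjusted p = 0.589, 95% interval −1.08 to 0.60). In N2B27 the WT-labelled pair had 0.31 and the KO-labelled pair −0.79.

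Il6st (ENSMUSG00000021756.12, chr13:112464070-112510086, plus strand), the shared signal chain, moved little. It had 18.8 and 20.8 FPKM in the WT-labelled and KO-labelled libraries of KSR day 0, and 17.5 and 18.8 at N2B27 day 0. It had 14.5 and 12.9 at KSR day 4, and 12.6 and 14.9 at N2B27 day 6. All 4 induced libraries lay below all 4 of day 0, at 72.5% of their mean. The change passed in KSR (−0.50 ± 0.14; adjusted p = 0.0271), and that in N2B27 missed the threshold (−0.38 ± 0.14; adjusted p = 0.0597). The KSR call was lost without the WT-labelled (−0.54; adjusted p = 0.103) or the KO-labelled day 0 library of that series (−0.45; adjusted p = 0.156) and without the KO-labelled KSR day 4 library (−0.34; adjusted p = 0.204). In N2B27 it passed with each library scaled by its median log2 ratio (−0.43; adjusted p = 0.0369).

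The other receptor chains of the family were listed with 5 genes, of which 4 could be tested. Over both media 2 rose and 2 fell, where 64.7% of all genes passed. Cntfr, which binds ciliary neurotrophic factor and signals with Lifr and Il6st, had 0.938 to 2.41 FPKM at day 0, 69.7 and 77.3 at KSR day 4 and 98.5 and 96.3 at N2B27 day 6, with the WT-labelled library first. It rose by 4.76 ± 0.20 log2 in KSR (adjusted p = 1.52e-05) and 5.65 ± 0.20 in N2B27 (adjusted p = 8.09e-06). Il11ra1, the interleukin 11 receptor chain, rose by 1.36 ± 0.15 over both media. Il6ra, the interleukin 6 receptor chain, fell from 3.53 to 5.16 FPKM at day 0 to 0.0633 to 0.258 (−2.25 ± 0.14), and Il27ra fell by 0.77 ± 0.20. Osmr, the oncostatin M receptor chain, stayed at or below 0.210 FPKM in all 8 libraries and was not tested.

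The mix of receptor mRNA differed between day 0 and the induced libraries. Over Lifr, Il6st, Il6ra, Il11ra1, Cntfr and Osmr, Lifr held 29.8% to 51.9% of the summed FPKM at day 0, 3.12% to 4.85% at KSR day 4 and 5.82% to 9.56% at N2B27 day 6. Cntfr held 2.04% to 5.25% at day 0 and 73.6% to 78.4% after induction. The sum of the 6 chains was 33.3 to 59.8 FPKM at day 0 and 94.6 to 131.4 after it. These shares are a description of FPKM, which is a level per length of transcript, and were not tested.

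Of 9 other ligand genes of the family 4 could be tested, and 1 fell over both media, where 29.1% of all genes fell and 35.6% rose. Osm, which encodes oncostatin M, had 4.04 to 15.6 FPKM at day 0 and at most 0.0644 after induction, listed at 0 in both KSR day 4 libraries (fitted −3.32 ± 0.20; adjusted p = 1.41e-05). Osm was the ligand gene with the highest FPKM at day 0, with 36.7% to 60.5% of the sum of the 10 ligand and cofactor genes, and Lif had 13.8% to 25.95%. Il6, which encodes interleukin 6, was listed at 0 in all 8 libraries.

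**Figure D3:**
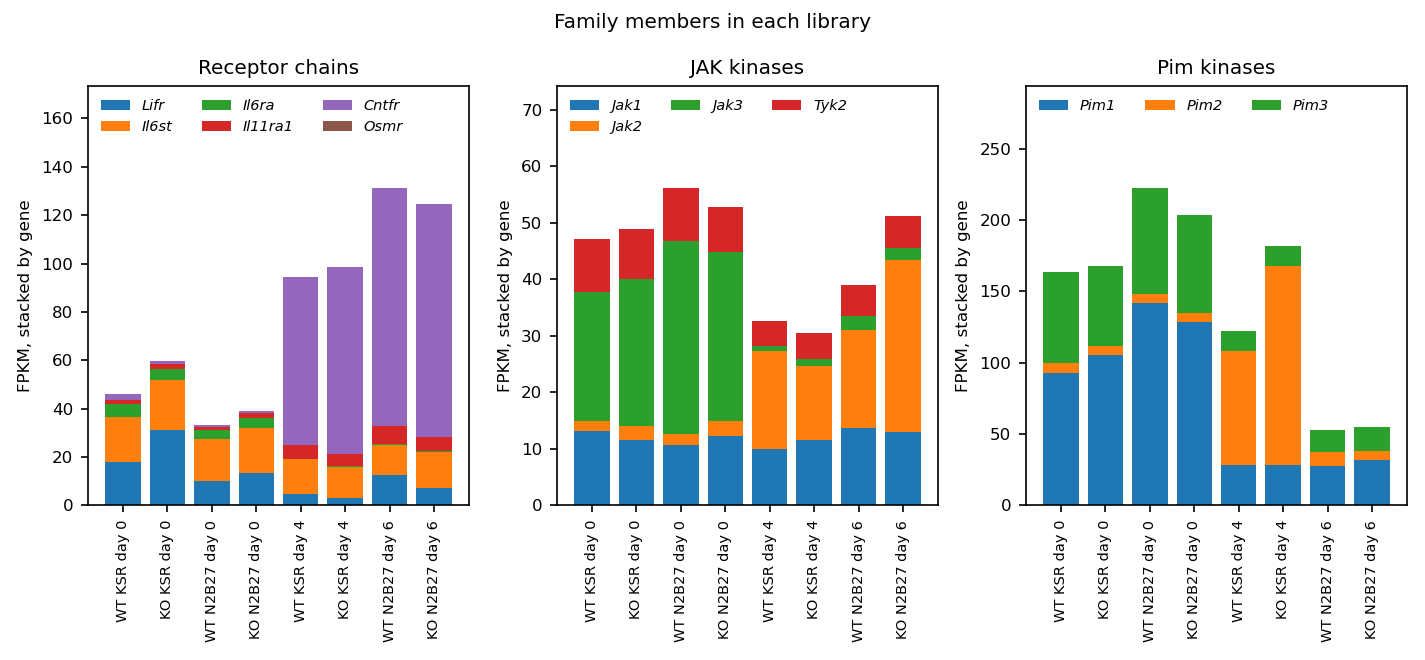
FPKM (y axis, linear, from 0) of the receptor chains, the JAK kinases and the Pim kinases, stacked by gene with 1 bar per library. Cntfr makes up 73.6% to 78.4% of the receptor bars after induction, Jak2 42.9% to 59.5% of the JAK bars, and Pim2 65.7% to 76.5% of the Pim bars at KSR day 4 but 11.8% to 18.0% at N2B27 day 6.

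The kinases Jak1 and Jak2 parted. Jak1 (ENSMUSG00000028530.14, chr4:101152367-101265282, minus strand), the JAK on which Il6st signalling chiefly rests, had 13.2 and 11.5 FPKM in the WT-labelled and KO-labelled libraries of KSR day 0, and 10.7 and 12.2 at N2B27 day 0. It had 10.0 and 11.6 at KSR day 4, and 13.7 and 12.9 at N2B27 day 6. The induced libraries overlapped with those of day 0. Its fitted values were −0.17 ± 0.16 in KSR (adjusted p = 0.400, 95% interval −0.55 to 0.20) and 0.20 ± 0.16 in N2B27 (adjusted p = 0.312, 95% interval −0.18 to 0.58), and it was the only one of the 9 genes called in neither medium.

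Jak2 (ENSMUSG00000024789.13, chr19:29251828-29313080, plus strand), a kinase of cytokine receptors that is also best known from erythropoietin and growth hormone signalling, was the lowest of the 9 genes by FPKM in all 4 day 0 libraries. It had 1.81 and 2.52 FPKM in the WT-labelled and KO-labelled libraries of KSR day 0, and 1.93 and 2.69 at N2B27 day 0. It had 17.2 and 13.1 at KSR day 4, and 17.4 and 30.5 at N2B27 day 6, where its rank was 2 or 3 of the 9. No induced library overlapped with day 0, and the KO-labelled N2B27 day 6 library stood above the other 3 induced ones. Jak2 rose by 2.35 ± 0.27 log2 in KSR (adjusted p = 0.000537) and by 2.87 ± 0.27 in N2B27 (adjusted p = 0.000189). The mean FPKM of the induced libraries was 873% of that of day 0.

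Of the 8 other JAK and STAT genes 7 fell and 1 rose over both media, where 29.1% of all genes fell and 35.6% rose. Jak3, best known as the kinase of the common gamma chain of lymphocytes, had the highest FPKM of the 4 JAK genes at day 0, at 22.7 to 34.2. It had 0.972 and 1.30 in the WT-labelled and KO-labelled KSR day 4 libraries, and 2.53 and 2.21 at N2B27 day 6. It fell by 3.57 ± 0.18 log2 in KSR (adjusted p = 2.41e-05) and 3.30 ± 0.18 in N2B27 (adjusted p = 2.29e-05). Jak3 held 48.0% to 60.9% of the FPKM of Jak1, Jak2, Jak3 and Tyk2 at day 0, and Jak2 3.42% to 5.15%. After induction Jak3 held 2.97% to 6.50% and Jak2 42.9% to 59.5%. The sum of the 4 genes was 47.2 to 56.2 FPKM at day 0, 30.5 to 32.7 at KSR day 4 and 38.95 to 51.2 at N2B27 day 6. Stat5a (−0.98 ± 0.14), Stat6 (−0.92 ± 0.13) and Stat2 (−0.75 ± 0.12) also fell over both media, and Stat5b rose (0.39 ± 0.13; adjusted p = 0.0310).

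Stat3 (ENSMUSG00000004040.16, chr11:100885098-100939540, minus strand) had 39.7 and 49.2 FPKM in the WT-labelled and KO-labelled libraries of KSR day 0, and 39.7 and 46.3 at N2B27 day 0. It had 8.21 and 9.86 at KSR day 4, and 20.1 and 11.1 at N2B27 day 6. Every induced library was below every day 0 library, and the WT-labelled N2B27 day 6 library was the highest of the induced ones. Stat3 fell by 2.18 ± 0.27 log2 in KSR (adjusted p = 0.000768) and by 1.46 ± 0.27 in N2B27 (adjusted p = 0.00371). Without the KO-labelled N2B27 day 6 library the N2B27 value was −0.93 (adjusted p = 0.00441). At day 0 Stat3 held 45.7% to 53.2% of the summed FPKM of the STAT genes, and after induction 21.7% to 44.8%. Stat3 shares 143 of its 9527 exonic bases with Stat5a on the opposite strand, and whether reads were counted by strand is not given in the sources used here. Stat5a reached at most 3.75 FPKM.

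The feedback inhibitor Socs3 (ENSMUSG00000053113.3, chr11:117966079-117970047, minus strand) fell furthest of the 9 genes. It had 55.7 and 47.5 FPKM in the WT-labelled and KO-labelled libraries of KSR day 0, and 72.1 and 76.4 at N2B27 day 0. It had 5.74 and 7.26 at KSR day 4, and 7.55 and 7.07 at N2B27 day 6. The induced libraries kept close together at 11.0% of the day 0 mean. Socs3 fell by 2.81 ± 0.15 log2 in KSR (adjusted p = 3.00e-05) and by 3.18 ± 0.15 in N2B27 (adjusted p = 1.71e-05). Socs3 held 50.5% to 55.3% of the summed FPKM of the SOCS genes at day 0 and 7.31% to 10.6% after induction.

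Pim1 (ENSMUSG00000024014.8, chr17:29490753-29496112, plus strand), a serine and threonine kinase that favours cell survival, had the highest FPKM of the 9 genes in all 8 libraries. It had 92.7 and 105.5 FPKM in the WT-labelled and KO-labelled libraries of KSR day 0, and 141.5 and 128.2 at N2B27 day 0. It had 28.5 and 28.3 at KSR day 4, and 27.9 and 31.5 at N2B27 day 6. The induced libraries spanned a narrow range far below day 0. Pim1 fell by 1.77 ± 0.12 log2 in KSR (adjusted p = 6.01e-05) and by 2.15 ± 0.12 in N2B27 (adjusted p = 2.42e-05). The antisense gene Gm26885 shares 634 of the 3362 exonic bases of Pim1 and had at most 0.868 FPKM.

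Its relative Pim3 (ENSMUSG00000035828.11, chr15:88862186-88865726, plus strand) had 64.1 and 56.2 FPKM in the WT-labelled and KO-labelled libraries of KSR day 0, and 74.7 and 68.8 at N2B27 day 0. It had 13.4 and 14.5 at KSR day 4, and 15.2 and 17.2 at N2B27 day 6, again without overlap. Pim3 fell by 2.03 ± 0.13 log2 in KSR (adjusted p = 5.25e-05) and by 2.08 ± 0.13 in N2B27 (adjusted p = 3.82e-05). Pim2, the remaining Pim kinase, did otherwise. It had 5.95 to 6.89 FPKM at day 0, 80.0 and 139.2 in the WT-labelled and KO-labelled KSR day 4 libraries, and 9.48 and 6.48 at N2B27 day 6. Pim2 rose in KSR (3.85 ± 0.28; adjusted p = 8.38e-05) and had 0.24 ± 0.28 in N2B27 (adjusted p = 0.500).

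Over the 8 libraries, Pim1 and Pim3 had the most alike profiles among the 36 pairs of the 9 genes. The root mean square difference of their centred log2 values was 0.137, against 0.368 for Stat3 and Pim3, 0.488 for Socs3 and Pim3 and 2.83 for Jak2 and Socs3, the least alike pair. Among the 9121 other genes with a mean of at least 5 FPKM, those nearest to Socs3 were Hoxc13 (0.146), Zfp36 (0.181) and Pgc (0.190), where the median gene had 1.55. Nearest to Stat3 were Mpc1 (0.180), Rap1gap and Whamm, and nearest to Jak2 were Zcchc18 (0.227), Sdk2 and Rbmx. Nearest to Lifr was Rusc2, at 0.364. These are descriptions over libraries that share media and days.

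The promoter windows below are shown because Socs3 was the gene that fell furthest, Pim1 and Pim3 had the most alike profiles, and Jak2 was the gene that rose. They are RefSeq windows of GRCm38.p6, from 250 bases before to 50 after a gene's start, written 5′ to 3′ along the gene: Socs3 chr11:117969317-117969616 on the minus strand, and Pim1 chr17:29490535-29490834, Pim3 chr15:88861944-88862243 and Jak2 chr19:29251553-29251852 on the plus strand. Capitals mark the STAT motif TTCNNNGAA in Socs3, and the GC box GGGCGG on either strand in the other windows.
Socs3: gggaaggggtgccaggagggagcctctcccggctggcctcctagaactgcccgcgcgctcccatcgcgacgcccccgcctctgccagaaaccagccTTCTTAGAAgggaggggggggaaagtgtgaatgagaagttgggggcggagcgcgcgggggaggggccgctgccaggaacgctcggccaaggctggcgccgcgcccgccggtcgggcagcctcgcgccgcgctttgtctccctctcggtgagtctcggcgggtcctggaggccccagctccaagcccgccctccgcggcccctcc
Pim1: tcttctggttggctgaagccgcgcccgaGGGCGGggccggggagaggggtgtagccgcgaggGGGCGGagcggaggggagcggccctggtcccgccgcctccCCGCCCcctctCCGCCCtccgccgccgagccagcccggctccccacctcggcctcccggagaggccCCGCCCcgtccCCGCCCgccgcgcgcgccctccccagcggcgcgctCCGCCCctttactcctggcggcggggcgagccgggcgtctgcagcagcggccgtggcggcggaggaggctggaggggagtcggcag
Pim3: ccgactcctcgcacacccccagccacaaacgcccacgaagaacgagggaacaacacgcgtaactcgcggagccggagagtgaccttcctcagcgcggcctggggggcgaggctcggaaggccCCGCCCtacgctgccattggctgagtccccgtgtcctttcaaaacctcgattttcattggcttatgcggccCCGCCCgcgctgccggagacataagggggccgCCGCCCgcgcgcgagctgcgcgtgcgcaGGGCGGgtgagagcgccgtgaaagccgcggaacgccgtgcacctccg
Jak2: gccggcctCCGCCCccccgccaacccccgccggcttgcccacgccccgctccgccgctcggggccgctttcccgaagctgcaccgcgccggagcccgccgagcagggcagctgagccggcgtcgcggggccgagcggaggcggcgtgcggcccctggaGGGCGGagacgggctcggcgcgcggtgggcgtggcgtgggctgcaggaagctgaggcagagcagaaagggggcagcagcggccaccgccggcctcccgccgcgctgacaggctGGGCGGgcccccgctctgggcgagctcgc

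All 9 genes matched the RefSeq table, with 11 windows, Lifr and Pim1 having 2 each. The motif TTCNNNGAA, which reads the same on both strands, was found in 1 of the 11 windows, that of Socs3, as TTCTTAGAA with its first base 154 bases before the RefSeq start. That start, and the whole Socs3 window, lies inside the gene coordinates given above, which are from GENCODE. It was found in 8.3% of all 32851 windows. The GC box GGGCGG, searched on both strands, was found 7 times in the first Pim1 window and 4 times in that of Pim3. It was found 3 times each in those of Il6st and Jak2, and 2 times each in those of Socs3 and the first of Lifr. Those of Jak1 and Stat3 had it 1 time each. It was found 0 times in the window of Lif and in the second windows of Lifr and Pim1. Of all windows, 35.7% held the GC box. The windows of the 9 genes had a median of 68.3% G and C, against 52.7% over all windows. These matches describe the letters in the windows only.

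Beyond the 9 genes, 14 other inhibitors of the route were tested, of which 4 rose and 7 fell over both media, 11 of 14 against 64.7% of all genes. The phosphatase gene Ptpn1 (1.15 ± 0.15) and the SOCS genes Socs6 (0.85 ± 0.11) and Socs5 (0.75 ± 0.13) were among those that rose. The phosphatase genes Ptpn6 (−2.18 ± 0.16) and Ptpn2 (−0.62 ± 0.12), and Pias2 (−1.31 ± 0.09), of the protein inhibitors of activated STAT, were among those that fell. The median over the list was −0.19. Of 6 genes of the ERK arm, the other route from Il6st, 3 rose and 2 fell, 5 of 6 against the same 64.7%. Ptpn11, the phosphatase that links the receptor to that arm, rose by 1.21 ± 0.09 and the adaptor Gab1 fell by 1.07 ± 0.11 (list median 0.11).

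Of 11 genes listed as LIF targets of stem cells, 7 fell and 2 rose over both media, with a list median of −2.48, where 29.1% of all genes fell and 35.6% rose. The transcription factor genes Tfcp2l1 (−6.10 ± 0.14), Klf4 (−5.68 ± 0.38) and Klf5 (−4.56 ± 0.25), and Bcl3, a cofactor of NF-kappa-B (−5.51 ± 0.16), were among those that fell. Those that rose were Pim2 and Myc, with Myc at 1.95 ± 0.23. Gbx2, a homeobox gene, rose in KSR (2.04 ± 0.51; adjusted p = 0.0152) and had −0.41 ± 0.51 in N2B27 (adjusted p = 0.523).

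**Figure D4:**
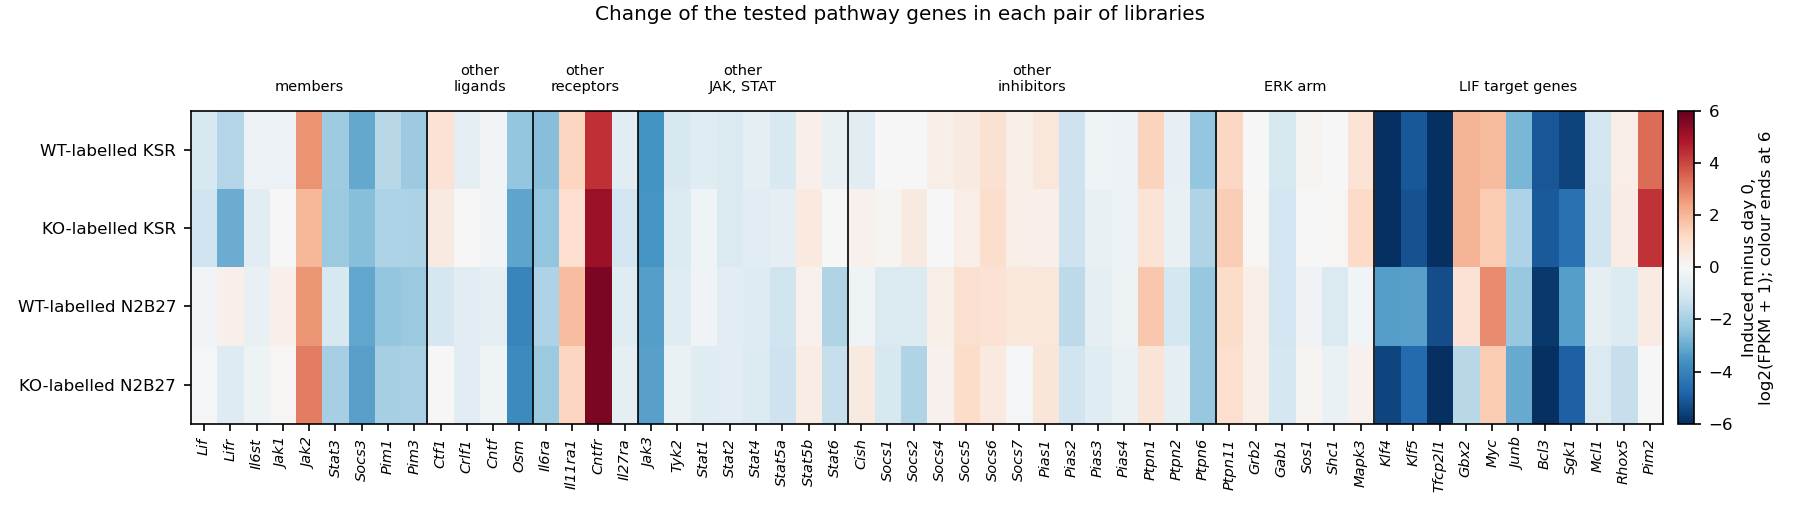
Change of the tested genes of the route (columns, grouped by list) in each pair of libraries (rows), as induced minus day 0 on log2 of FPKM plus 1, red for higher and blue for lower, with the colour ending at 6. Cntfr and Jak2 are red and Jak3, Socs3 and Bcl3 blue in all 4 rows, whereas Pim2 is red in the KSR rows and near white in the N2B27 rows, where it was at 0.24 fitted.

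Markers of cell types moved with these changes. The counts of markers are over both media, where 29.1% of all genes tested fell and 35.6% rose. Many markers, with all 7 tested endoderm markers among them, were under 1 FPKM in most or all libraries of 1 state. They passed the filter mainly through the state where they were high, which all but fixed the direction of a call. The counts are therefore a description only. The 10 naive stem cell markers fell over both media, and their summed FPKM was 1810 to 2343 at day 0, 76.1 to 129.5 at KSR day 4 and 15.9 to 42.4 at N2B27 day 6. The 8 neural progenitor markers rose, from a sum of 6.43 to 10.6 at day 0 to 330.6 to 431.3 at KSR day 4 and 814.0 to 1038 at N2B27 day 6. Of 8 neuron markers 7 rose and 1 fell, with sums of 71.1 to 117.6, 141.0 to 149.9 and 96.5 to 360.7. Stmn2, the 1 that fell, made up most of the day 0 sum, with 69.7 to 115.4 FPKM. The 7 tested of 8 endoderm markers rose, with sums of 1.29 to 2.56, 35.1 to 36.8 and 81.9 to 218.0, and Afp stayed at or below 0.540 FPKM. Of 9 fibroblast and smooth muscle markers 5 rose and 1 fell among 7 tested, with sums of 3.56 to 10.9, 97.7 to 110.9 and 118.7 to 226.8, and Lum stayed at or below 0.118. Of 6 astrocyte markers 3 were tested, 2 rose and 1 fell, and Gfap, Aqp4 and S100b had at most 0.152, 0.630 and 0.114 FPKM. Of 8 blood and endothelium markers 4 were tested, 2 rose and 1 fell, with sums of 42.0 to 76.9, 4.90 to 10.5 and 3.08 to 21.5. Pecam1, the 1 that fell, made up most of the day 0 sum, with 40.5 to 75.7 FPKM. Hba-x and Hbb-bh1, the 2 that rose, were listed at 0 in all day 0 libraries, and after induction they were higher under the KO label. Hba-x had 0.615 and 3.23 FPKM in the WT-labelled and KO-labelled libraries of KSR day 4, and 0.117 and 9.155 at N2B27 day 6. Hbb-bh1 had 1.14 and 2.18 at KSR day 4, and 0.352 and 10.9 at N2B27 day 6. Only the induced KO-labelled libraries brought Hba-x past the filter. Ptprc had at most 0.0882 FPKM. The part of these cell types in the changes of the LIF route was not tested.

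Whether the response differed between the media was tested as the N2B27 minus the KSR response. Of the 9 genes 0 passed, where 3.96% of all genes did, and 2 of the 9 had an unadjusted p under 0.05, against 3798 of 15967. Lifr had the largest value of the 9, 2.12 ± 0.50 log2 (adjusted p = 0.0689, 95% interval 0.93 to 3.31), followed by Lif with 0.93 ± 0.30 (adjusted p = 0.131, 95% interval 0.21 to 1.65) and Stat3 with 0.72 ± 0.38 (adjusted p = 0.306). Pim3 had −0.06 ± 0.19, with a 95% interval of −0.50 to 0.39. Lifr passed in a fit without the genotype term (adjusted p = 0.0452), and Stat3 passed without the KO-labelled N2B27 day 6 library (1.24; adjusted p = 0.0354), while without the WT-labelled one its value was 0.19 (adjusted p = 0.566). Among the other genes of the route Pim2 (−3.61 ± 0.40; adjusted p = 0.0146) and Stat6 (−1.35 ± 0.26; adjusted p = 0.0440) passed. The count of 633 genes over the table came to between 1 and 66 without any 1 of 7 libraries and to 539 without the KO-labelled N2B27 day 6 library. It was 233 with the libraries of the same label and series as a block.

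The day 0 libraries of the 2 series, both stem cells, were compared in the same way. Of the 9 genes 0 passed in limma, against 2.07% of all genes, and 3 had an unadjusted p under 0.05, against 3256 of all genes. These were Socs3 (0.52 ± 0.15; adjusted p = 0.134) and Pim1 (0.44 ± 0.12; adjusted p = 0.114), higher in both N2B27 series libraries than in both KSR series libraries, and Lifr (−0.97 ± 0.35; adjusted p = 0.193), lower in both. Without 1 library at a time the value of Lifr ran from −1.49 to −0.46, and 2 to 124 genes of the whole table passed where 330 did. Stat3 had −0.04 ± 0.27, with a 95% interval of −0.69 to 0.60. Of the other genes of the route 1 passed, Rhox5, a homeobox gene of the X chromosome, at 2.77 ± 0.39 (adjusted p = 0.0297).

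The effect of the KO label was tested over the 4 conditions. Of the 9 genes 0 passed in limma, and 0 had an unadjusted p under 0.05, against 694 of all genes. Over all genes 0.00626% passed, which is 1 gene, Eif2s3y. The values of the 9 genes ran from −0.09 ± 0.15 for Lif to 0.27 ± 0.19 for Jak2, with adjusted p of 0.945 to 0.999. The 95% intervals were narrowest for Pim1 (−0.15 to 0.25) and widest for Lifr (−0.60 to 0.59). The KO-labelled library was the lower one for 3 of the 9 genes at KSR day 0, 4 at KSR day 4, 3 at N2B27 day 0 and 5 at N2B27 day 6, and for 52.4%, 49.5%, 56.7% and 46.0% of all genes in the same order.

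**Figure D5:**
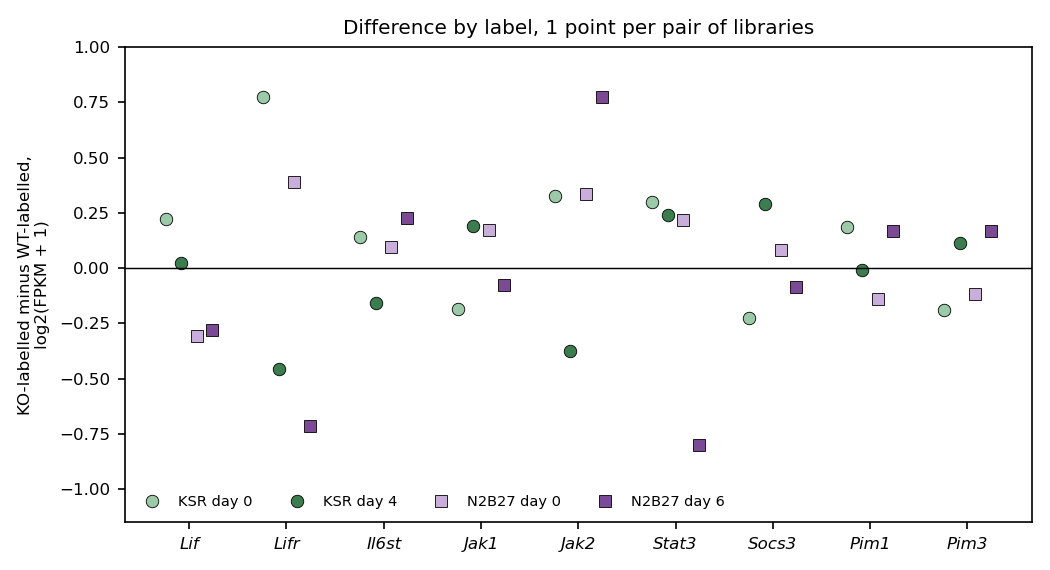
Difference of the KO-labelled from the WT-labelled library (y axis, log2 of FPKM plus 1) for each gene, with 1 point per condition. Lifr lies above 0 in both day 0 pairs (0.77 and 0.39) and below 0 in both induced pairs (−0.46 and −0.71), and Stat3 lies below 0 in the N2B27 day 6 pair only (−0.80).

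Whether induction itself differed by label was tested with an interaction term. Of the 9 genes 0 passed in limma, against 0.00626% of all genes, which is 1 gene, Gm7618, listed at 0 in 6 libraries and at 51.0 and 54.8 FPKM in the induced KO-labelled ones. An unadjusted p under 0.05 was reached by 1 of the 9, Lifr, and by 679 of all genes. For Lifr the KO-labelled library held 175% of the FPKM of its WT-labelled partner at KSR day 0 and 134% at N2B27 day 0, but 67.0% at KSR day 4 and 57.9% at N2B27 day 6. The fitted difference was −1.17 ± 0.25 log2 (unadjusted p = 0.00396, adjusted p = 0.917). For Stat3 the KO-labelled library held 117% to 124% of its partner in the other 3 conditions and 55.3% at N2B27 day 6 (fitted −0.54 ± 0.35; adjusted p = 0.917, 95% interval −1.40 to 0.32).

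The Stat3 targets among the 9 genes lay closer together in that pair, where the KO-labelled library held 93.65% of the Socs3, 112.9% of the Pim1 and 113.2% of the Pim3 FPKM of its partner. In the N2B27 day 6 pair the KO-labelled library was the lower one for 11 of 11 LIF target genes, with a median of −1.24 log2, where 46.0% of all genes were lower and the median was 0.02. The WT-labelled and KO-labelled libraries had 19.8 and 3.43 FPKM of Klf4. The values were, for Sgk1, a serum and glucocorticoid inducible kinase gene, 19.4 and 5.51, and Gbx2 47.1 and 12.7. At KSR day 4 the KO-labelled library was lower for 3 of the 11, with a median of 0.25, and at day 0 for 6 and 7 of them. There is 1 library per label in each pair, so this is a description with no test. The column of the WT-labelled library of the N2B27 day 6 pair is named day 7. A difference of days within that pair can therefore not be told apart from the label. In the same N2B27 day 6 pair the KO-labelled library was lower for 8 of 8 neuron markers (summed FPKM 96.5 against 360.7, with the KO-labelled library first), for 7 of 7 tested endoderm markers (81.9 against 218.0), for 9 of 10 naive markers (15.9 against 42.4), for 3 of 3 tested astrocyte markers (15.9 against 22.2) and for 4 of 8 neural progenitor markers (814.0 against 1038). It was lower for 2 of 7 tested fibroblast and smooth muscle markers, whose sum was 226.8 against 118.7, and for 1 of 4 tested blood and endothelium markers, with 21.5 against 3.08. Their part in the difference was not tested.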

How the data were processed

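Messenger RNA of 8 libraries was read in pairs on a NovaSeq instrument after a SMARTer kit, per the labels' protocols. The authors deposited 1 table of FPKM per gene symbol, made with STAR and Cufflinks on mm10 per the submitters' processing notes, with versions, settings and annotation not given in the sources used here. FPKM hide the counts, and whole fragments were not recovered. The relative depths come from the most frequent ratio between libraries of values below 0.1 FPKM, a ratio that 22.1% to 26.5% of the genes compared shared to within 0.02 log2. Columns were matched to the titles and genotype labels; 4 descriptions name another library than the title, which was followed, and 2 KO columns whose names are also such descriptions were matched by group. The WT-labelled N2B27 column is named day 7 where its label gives day 6. Of 55188 rows, 110 repeats were joined by summing, and 24645 of the 55078 symbols were at 0 throughout.

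The test was that of limma 3.58.1 (R 4.3.3), trend option on, for genes of at least 1 FPKM in at least 2 libraries, after adding 1 and taking log2, a scale that understates the change of low genes. A gene under 1 FPKM in all libraries of 1 state passed the filter only through the other state, which all but fixed the direction of a call. All 8 libraries entered 1 fit with 4 conditions and the genotype label; the interaction of label and induction was a second fit. P-values were adjusted over all 15967 genes by the Benjamini-Hochberg method in each of 7 comparisons. The labels give no shared replicate numbers, and the genotype term is the only block; a block of the libraries of 1 label and series was tried after the data were seen. The comparison of both media reuses the libraries of the other 2 induction comparisons, and all share day 0 or induced libraries. Gene coordinates are those of GENCODE M21, sequences those of RefSeq GRCm38.p6. Named genes were the 9, up to 4 per list and direction with the largest change over both media, up to 5 per direction in the other comparisons, and the 3 most alike in profile. Sgk1, Gbx2, Gm7618, Eif2s3y, Il6, Osmr and the markers given at low levels lie outside that rule, as genes picked with their values in view. Genes flagged for a closer look were named by another rule, as all those that met the conditions given there. The 9 genes and all lists were chosen with earlier results of these data known, and 1 gene of the lists is not reported here. Python 3.11.15 with numpy 2.4.6, pandas 2.3.3 and matplotlib 3.10.9 served the other steps.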

Additional observations from a re-analysis of the deposited data

Results flagged for a closer look

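Several genes of the lists had a response that passed the test of the difference between the media, N2B27 minus KSR in log2 (n = 2 pairs each). Of the route these were Stat6 (−1.35; adjusted p = 0.0440) and Pim2 (−3.61; adjusted p = 0.0146). Of the markers they were Tbx3 (2.33), Dppa3 (−2.73), Fabp7 (2.13), Hes5 (2.05), Zic1 (3.84), Col1a1 (1.91), Col3a1 (3.0) and Sox17 (3.02), with adjusted p of 0.00643 to 0.0383. Dppa3 already differed between the day 0 series, by 2.46 log2 with an adjusted p of 0.0241 in limma. Its WT-labelled and KO-labelled libraries had 0.990 and 1.91 FPKM at KSR day 0 and 15.5 and 9.64 at N2B27 day 0. After induction Dppa3 had at most 0.488 FPKM in either medium. Others moved up in both pairs of KSR and down in both pairs of N2B27, while the test of the difference did not pass: the inhibitors Socs1 (−1.01; adjusted p = 0.0817) and Socs2 (−1.61; adjusted p = 0.0591) and Rhox5 (−1.51; adjusted p = 0.163). Some of the KSR values were small, with 0.03 and 0.15 for Socs1 and 0.007 and 0.54 for Socs2, WT-labelled pair first. Socs1 had 0.821 to 0.928 FPKM at KSR day 0, 2.55 to 2.73 at N2B27 day 0 and 0.900 to 1.02 after induction. Rhox5 had 3.45 to 5.46 at KSR day 0 and 30.2 to 41.7 at N2B27 day 0. Cish, an inhibitor of the SOCS family, moved down in both WT-labelled and up in both KO-labelled pairs, and the difference of 0.85 did not pass (adjusted p = 0.917). None of the 9 genes met either condition, and no group held the 4 samples needed to look for a library far from the rest.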

How the results depend on the processing

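The 5 genes called in both media (Jak2, Stat3, Socs3, Pim1 and Pim3) kept their direction and their call under every setting and every left-out library tried. Over the 9 genes and 7 comparisons, 418 of 425 values under other pseudocounts, filters, scalings, eBayes settings and designs kept direction and call. Scaling by the median log2 ratio shifted the median of all genes by −0.101 in KSR and −0.051 in N2B27, and the share of called genes that were higher went from 58.7% to 50.5% and from 53.1% to 49.7%. It turned Jak1 over both media to −0.0615, and by label Lifr to 0.0069 and Pim3 to 0.0036. Il6st in N2B27 passed under that scaling, without the genotype term (adjusted p = 0.0496) and with the day 0 series pooled (−0.44; adjusted p = 0.0280).

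Counts over all genes moved more. Without a filter on low values 46 genes passed for N2B27 minus KSR, 67 for the day 0 series and 0 for each comparison of labels; without a trend 215 passed for the day 0 series, where 330 did. By label a pseudocount of 0.1 gave 2 genes, and a filter of 5 FPKM gave 2 for the difference in response. Without the genotype term 1 of the 9 genes, Lifr, passed for N2B27 minus KSR.

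With 1 library left out, a lone library of a condition is assumed to vary like the others. The counts then were 4870 to 8094 genes in KSR (4870 without the WT-labelled day 4 and 4991 without the KO-labelled day 0 library, against 7738), 6509 to 8225 in N2B27, 8810 to 9842 over both, 1 to 539 for N2B27 minus KSR, 2 to 124 for day 0, 0 to 1 by label and 0 to 0 for the difference in response. Of the 9 genes 6 to 8, 5, 7 to 8 and 0 to 1 passed in the first 4. Lif over both media lost its call without the KO-labelled KSR day 0 library (−0.51; adjusted p = 0.0513). Values that changed sign had not passed in the full fit. Their ranges were, by label, −0.0284 to 0.10 for Jak1, −0.26 to 0.23 for Lifr, −0.064 to 0.0546 for Pim3, −0.0751 to 0.0974 for Socs3 and −0.12 to 0.25 for Stat3. For the difference in response by label they were −0.27 to 0.11 for Il6st, −0.11 to 0.24 for Jak1, −0.70 to 0.44 for Jak2, −0.35 to 0.18 for Lif, −0.10 to 0.22 for Pim1 and −0.0122 to 0.36 for Socs3. At day 0 they were −0.24 to 0.0421 for Jak1, −0.0884 to 0.32 for Lif and −0.25 to 0.17 for Stat3. For Lifr in N2B27 the range was −0.71 to 0.24, for N2B27 minus KSR −0.0378 to 0.27 for Il6st and −0.18 to 0.0653 for Pim3, and for Jak1 over both media −0.0563 to 0.0844. A replicate block of the libraries of the same label and series was added after the data were seen, since the labels carry no shared replicate numbers and do not say that such libraries share a culture. With the block 7514 genes passed in KSR, 8758 in N2B27, 10242 over both, 233 for N2B27 minus KSR and 2 for the difference in response, and no call among the 9 genes changed. Depth is known only in relative terms, so no limit from counting error can be given.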
